A study of Mus musculus with 745 samples.

Results

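The 9 genes described here belong to MHC class I antigen presentation and were measured in single endothelial cells of the mouse brain. The members are B2m, H2-K1, H2-D1, Tap1, Tap2, Tapbp, Psmb8, Psmb9 and Nlrc5, taken by symbol. All 9 were among the 20607 gene symbols of the count table. By its title the study concerns the passage of blood proteins into the brain and its decline with age. Its samples here are primary brain endothelial cells of mice aged 3 months, all labelled young, with no treatment and no transgene or mutation named. They were dissociated with a neural dissociation kit, sorted by FACS on unstated markers and sequenced 1 cell to a sample. The titles divide them into 3 sets: Young1 holds 30.2% of the cells, Young2 34.6%, and AY_Y3 the remaining 35.2%. No label ties a set to 1 animal, to pooled animals or to a plate, so spread between sets may be technical.

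MHC class I molecules show fragments of a cell's own proteins to CD8 T cells. The immunoproteasome subunits cut proteins into peptides, the TAP transporter moves these into the endoplasmic reticulum, and tapasin helps load them on a heavy chain paired with beta-2 microglobulin. Interferons raise the whole pathway, partly through the transactivator NLRC5, and brain endothelium presents class I at the boundary between blood and brain. H2-K1 and H2-D1 are the classical heavy chain genes of the mouse, and B2m encodes their light chain. Tap1 and Tap2 encode the subunits of the transporter and Tapbp encodes tapasin. Psmb8 and Psmb9 encode the immunoproteasome subunits also called LMP7 and LMP2, and Nlrc5 encodes the transactivator.

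The promoters of the light chain, of both heavy chains and of the Tap1 and Psmb9 pair are shown because H2-K1, H2-D1 and B2m varied together most closely over cells and Tap1 and Psmb9 share most of a window. Each window runs from 250 bases before a RefSeq start to 50 bases after it (GRCm38.p6), on the gene's own strand, 5′ to 3′. Capitals mark matches, on either strand, to GAAANNGAAA or GAANNGAAA (the type of interferon-response elements), GGGNNNNNCCC (the type of NF-kappa-B sites), CCAAT and TGACG (a box and a cyclic-AMP-type core found in many class I promoters). No 2 matches overlap in these windows.
B2m, chr2:122147437-122147736, plus strand: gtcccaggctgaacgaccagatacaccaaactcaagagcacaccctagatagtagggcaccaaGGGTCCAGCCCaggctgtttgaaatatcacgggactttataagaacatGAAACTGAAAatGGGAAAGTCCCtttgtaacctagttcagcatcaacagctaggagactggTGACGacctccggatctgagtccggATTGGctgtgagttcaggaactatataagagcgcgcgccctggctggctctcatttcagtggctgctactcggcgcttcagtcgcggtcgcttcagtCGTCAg
H2-K1, chr17:34000284-34000583, minus strand: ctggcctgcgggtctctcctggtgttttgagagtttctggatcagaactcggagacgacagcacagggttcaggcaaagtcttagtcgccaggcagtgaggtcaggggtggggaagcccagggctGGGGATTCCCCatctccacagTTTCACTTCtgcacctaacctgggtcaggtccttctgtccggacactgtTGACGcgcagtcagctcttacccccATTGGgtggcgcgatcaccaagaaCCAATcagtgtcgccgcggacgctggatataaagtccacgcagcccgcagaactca
H2-D1, chr17:35262844-35263143, plus strand: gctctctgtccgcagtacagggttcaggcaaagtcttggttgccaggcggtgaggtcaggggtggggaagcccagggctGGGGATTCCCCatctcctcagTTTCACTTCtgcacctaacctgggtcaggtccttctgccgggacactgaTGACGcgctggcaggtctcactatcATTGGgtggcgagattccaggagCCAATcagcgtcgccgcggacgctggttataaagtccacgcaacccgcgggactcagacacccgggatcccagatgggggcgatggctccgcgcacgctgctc
Tap1, chr17:34187306-34187605, plus strand: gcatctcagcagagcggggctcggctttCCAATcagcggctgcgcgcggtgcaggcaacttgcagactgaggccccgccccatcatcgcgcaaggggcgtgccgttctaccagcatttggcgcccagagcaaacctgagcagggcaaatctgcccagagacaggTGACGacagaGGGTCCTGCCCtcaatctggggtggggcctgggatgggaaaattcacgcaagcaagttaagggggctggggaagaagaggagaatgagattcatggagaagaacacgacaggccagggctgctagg
H2-K1 and H2-D1 carry the same GGGGATTCCCC and, downstream of it, the same TTTCACTTC, a match to GAANNGAAA on the other strand. The match to CCAAT on the other strand begins 30 bases before the start in H2-K1, 76 bases before it in H2-D1 and 53 bases before it in B2m. H2-K1 has another RefSeq start, whose window is not shown, and the same match begins 16 bases before that start. The aligned stretch of the H2-K1 and H2-D1 promoters is identical at 87.7% of its bases. B2m carries GAAACTGAAA with GGGAAAGTCCC just downstream of it. The Tap1 window is also the promoter of Psmb9, which starts close by on the other strand, and 275 bases of their windows coincide.

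RefSeq windows were found for 7 of the 9 members, all but Tap2 and Nlrc5. GAAANNGAAA was in 1 of the 7 (B2m) and in 3.49% of the promoters of 27025 genes. GAANNGAAA was in 2 (H2-K1 and H2-D1) and in 7.56% of all. GGGNNNNNCCC was in 5 of the 7 and in 13.8% of all, and TGACG was in the same 5 (B2m, H2-K1, H2-D1, Tap1 and Psmb9) and in 21.02% of all. CCAAT was in 6 of the 7 and in 37.9% of all, and Psmb8 had none of these letters in its window. Since Tap1 and Psmb9 share most of a window, their matches are not separate. A match describes letters and is not a site, and no binding was measured in these cells.

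In the GENCODE M21 annotation of the same build, 7 of the members lie on chromosome 17, in the region of the mouse MHC. Tapbp is at chr17:33915899-33929292, H2-K1 at chr17:33996017-34000347 and H2-D1 at chr17:35262730-35267499. Psmb9 (chr17:34181987-34187764), Tap1 (chr17:34187553-34197225), Psmb8 (chr17:34197721-34201454) and Tap2 (chr17:34203527-34216321) are neighbours. B2m is at chr2:122147686-122153083 and Nlrc5 at chr8:94434356-94527272. H2-K1 and Psmb9 are on the minus strand and the others on the plus strand. The exons of Tap1 and Psmb9 overlap at their ends on opposite strands. No source used here says whether the counting used strand, so reads in that overlap cannot be told apart. Tap2, Tapbp, Psmb8 and Nlrc5 overlap exons of other genes too, by 698, 1053, 498 and 78 bases. The heavy chains are alike enough to share reads: 12.8% of the 50-base windows of H2-D1 transcripts and 9.63% of those of H2-K1 also occur in transcripts of other genes, among them H2-Q genes and each other. With 100-base windows these shares are 3.59% and 0.957%, and B2m and Psmb9 share no window of either length. Levels of H2-K1, H2-D1 and the H2-Q genes are uncertain to that extent, and no source used here states the read length.

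Of all cells, 63 (8.46%) fell in clusters led by genes of other types and were left out, 38 with pericyte and 25 with astrocyte markers. The 682 endothelial cells that remained (30.8% from Young1, 32.99% from Young2 and 36.2% from AY_Y3) had between 52819 and 2421434 counts each. Median counts were 757844 in Young1, 662096 in Young2 and 417500 in AY_Y3. AY_Y3 was the shallowest set, yet had the most genes per cell at equal depth, with a median of 1854 genes at 50000 counts against 1557.5 in Young1 and 1656 in Young2. Summed endothelial markers (Pecam1, Cdh5, Cldn5 and others) lay between 17126 and 21271 CPM (counts scaled to a total of 1000000) in every set of the vessel classes compared here. The counts carry no molecular identifiers, and intervals cover counting error only.

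The light chain and the heavy chain gene H2-D1 were found in nearly every endothelial cell, H2-K1 and tapasin in most of them, and each of the remaining members in a minority. B2m had a count in 98.8% of the 682 cells (exact 95% interval 97.7 to 99.5). H2-D1 was detected in 96.5% (94.8 to 97.7) and H2-K1 in 81.5% (78.4 to 84.4). Tapbp followed at 72.1% (68.6 to 75.5) among the loading genes. Psmb8 was detected in 48.1% of cells (44.3 to 51.9), and Psmb9, its partner in the immunoproteasome, in 25.8% (22.6 to 29.3). The transporter subunits were unequal, with Tap2 in 33.1% (29.6 to 36.8) and Tap1 in 9.82% (7.69 to 12.3). Nlrc5 was the rarest, in 47 cells or 6.89% (5.11 to 9.06).

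Thinning each cell to 50000 counts changed the order of no member. It lowered detection to 94.9% for H2-D1, 42.96% for Psmb8 and 4.84% for Nlrc5, each by more than the SD of the sets, and moved the other 6 members by less. H2-K1 was the member whose detection varied most between sets at high level, at 81.9% in Young1, 76.4% in Young2 and 85.8% in AY_Y3. Tap2 was detected in 30.5%, 29.3% and 38.9% of cells in that order of sets.

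**Figure D1:**
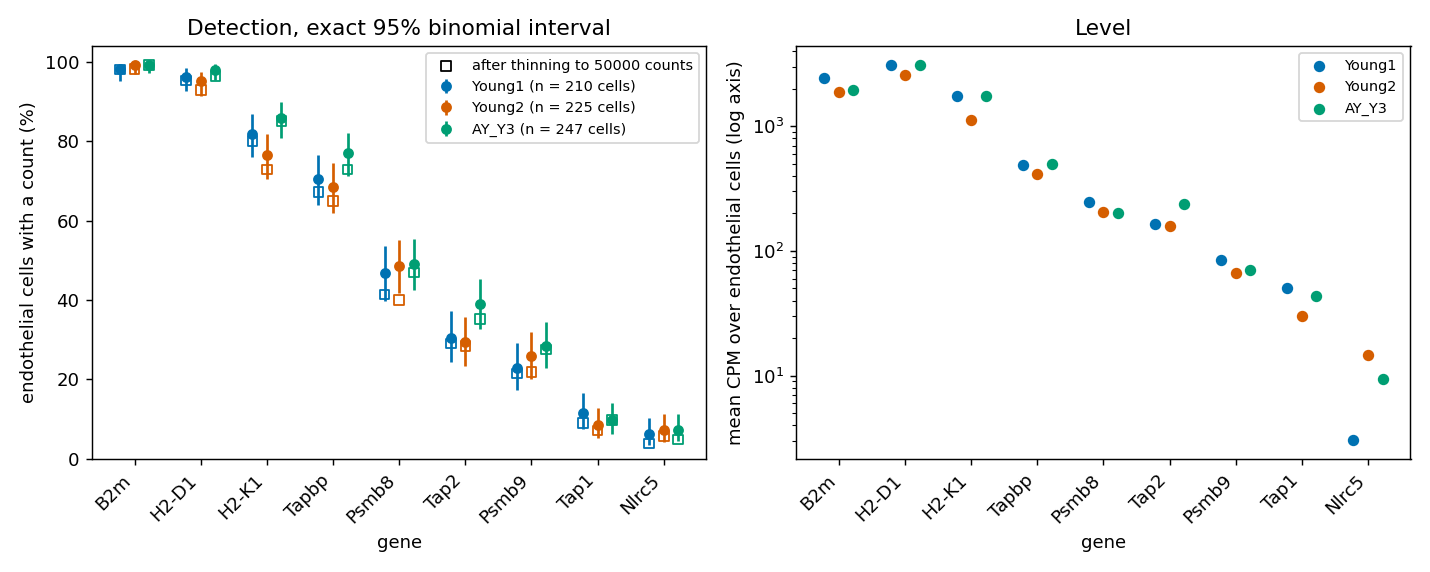
Left, share of endothelial cells with a count of each member in each set, with exact 95% binomial intervals (filled points) and after thinning each cell to 50000 counts (open squares). Right, mean CPM over cells on a log axis. B2m and H2-D1 sit above 95% in every set, while Tap1 and Nlrc5 stay below 12%.

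Mean CPM over cells was 2428 in Young1, 1888 in Young2 and 1948 in AY_Y3 for B2m. Single cells ran from 0 to 10971 CPM for this gene, with a median of 1889.8. H2-D1 had mean CPM of 3085, 2567 and 3117 in that order of sets, and its cells ran from 0 to 13804 with a median of 2612. Young2 was the lowest set for both, by a small margin for B2m. H2-K1 had mean CPM of 1746, 1116 and 1744, with a median cell at 1173 and the highest at 9706. Its highest set was 1.56 times its lowest, against 1.29 times for B2m and 1.21 times for H2-D1.

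Among the loading genes, Tapbp averaged 469 ± 44.7 CPM over the sets (SD, n = 3, here and in what follows) and Tap2 186.2 ± 43.7. Tap1 averaged 41.2 ± 10.3 CPM, its median cell was at 0, and its highest cell reached 2514 CPM. Both transporter subunits were thus carried by a minority of cells. Psmb8 averaged 217.6 ± 26.1 CPM and Psmb9 73.8 ± 10.1. Nlrc5 averaged 9.05 ± 5.82 CPM, with 3.04 in Young1, 14.7 in Young2 and 9.43 in AY_Y3, and its set means rest on 13, 16 and 18 cells with a count.

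To set genes beside each other, mean CPM were divided by the length of the union of annotated exons. B2m was highest at 2428 ± 344 CPM per kb, then H2-D1 at 1133 ± 119.7 and H2-K1 at 523 ± 123.6 CPM per kb. Tapbp stood at 129.2 ± 12.3, Psmb8 at 64.4 ± 7.71 and Tap2 at 49.2 ± 11.6 CPM per kb. Psmb9 was at 20.2 ± 2.76, Tap1 at 7.52 ± 1.88 and Nlrc5 at 1.07 ± 0.685 CPM per kb. The order was the same in every set except that Tap2 stood above Psmb8 in AY_Y3 (62.6 and 59.1 CPM per kb), so this pair did not separate beyond its spread. The other neighbours in the order did not overlap between sets.

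A cell had a count of 5 members in the median, with a range of 0 to 9. All 9 were seen in 3 cells and none in 1 cell. B2m together with at least 1 of the heavy chains was present in 97.1% of cells, and all of B2m, H2-K1 and H2-D1 in 79.3%. Cells with H2-D1 and no H2-K1 made up 16.6%, while those with H2-K1 and no H2-D1 made up 1.61%. At 50000 counts per cell these shares were 18.2% and 2.79%, so the imbalance remained at equal depth.

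Counts of both transporter subunits met in 29 of 682 cells. Psmb9 was detected in 50.7% of the 67 cells with Tap1 and in 23.1% of the 615 cells without it. This held in each set, at 45.8% against 19.9% in Young1, 63.2% against 22.3% in Young2 and 45.8% against 26.5% in AY_Y3. Cells with Tap1 were deeper, with a median of 757949 counts against 584881, except in AY_Y3 where they had 394779 against 417500. Tap2 was detected in 43.3% of cells with Tap1 and 32.03% of cells without it. Psmb8 was detected in 61.9% of cells with Psmb9 and in 43.3% of cells without it.

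The members varied together over cells, most of all the heavy chains and the light chain with each other. Spearman correlations of CPM were taken over the cells of a set and averaged over the 3 sets. They are descriptions without a test, since cells of a set share their processing and depth. H2-K1 and H2-D1 gave the highest of the 36 pairs, at 0.43 in Young1, 0.35 in Young2 and 0.50 in AY_Y3. B2m with H2-K1 gave 0.39, 0.36 and 0.42, and B2m with H2-D1 gave 0.32, 0.36 and 0.44 in that order of sets. By Spearman's the mean correlations of the other pairs did not exceed 0.22 (B2m and Psmb8). Reads shared by H2-K1 and H2-D1 can add to their pair, while B2m shares no window with another gene. The part of shared reads in these pairs, those with B2m included, was not tested.

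Over all 36 pairs the median was 0.14, and 33 pairs were positive in all 3 sets. Each member's median with the other 8 ran from 0.06 (Nlrc5) to 0.18 (Psmb8, B2m and H2-D1). Medians of the same members with about 6856 genes detected in at least 10% of cells ran from 0.02 to 0.05. Tap1 with Psmb9, its divergent neighbour, gave 0.19, 0.23 and 0.11, the highest of its pairs on average (0.18), and the exons of these genes overlap as given above. Thinned to equal depth Tap1 had 0.144 with B2m and 0.140 with Psmb9, and by Pearson's 0.146 with Tapbp and 0.130 with Psmb9, so no partner of Tap1 stood apart. These are weak correlations of genes present in a minority of cells. Given the number of genes and counts per cell, the median over pairs was 0.11, and the 3 leading pairs ran between 0.32 and 0.48 in single sets. By Pearson's correlation of log2(CPM + 1) those pairs ran between 0.13 and 0.33, and they did not stand apart: B2m with H2-D1 had a mean of 0.24, beside 0.23 for Tapbp with Psmb8 and 0.22 for B2m with Psmb8.

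**Figure D2:**
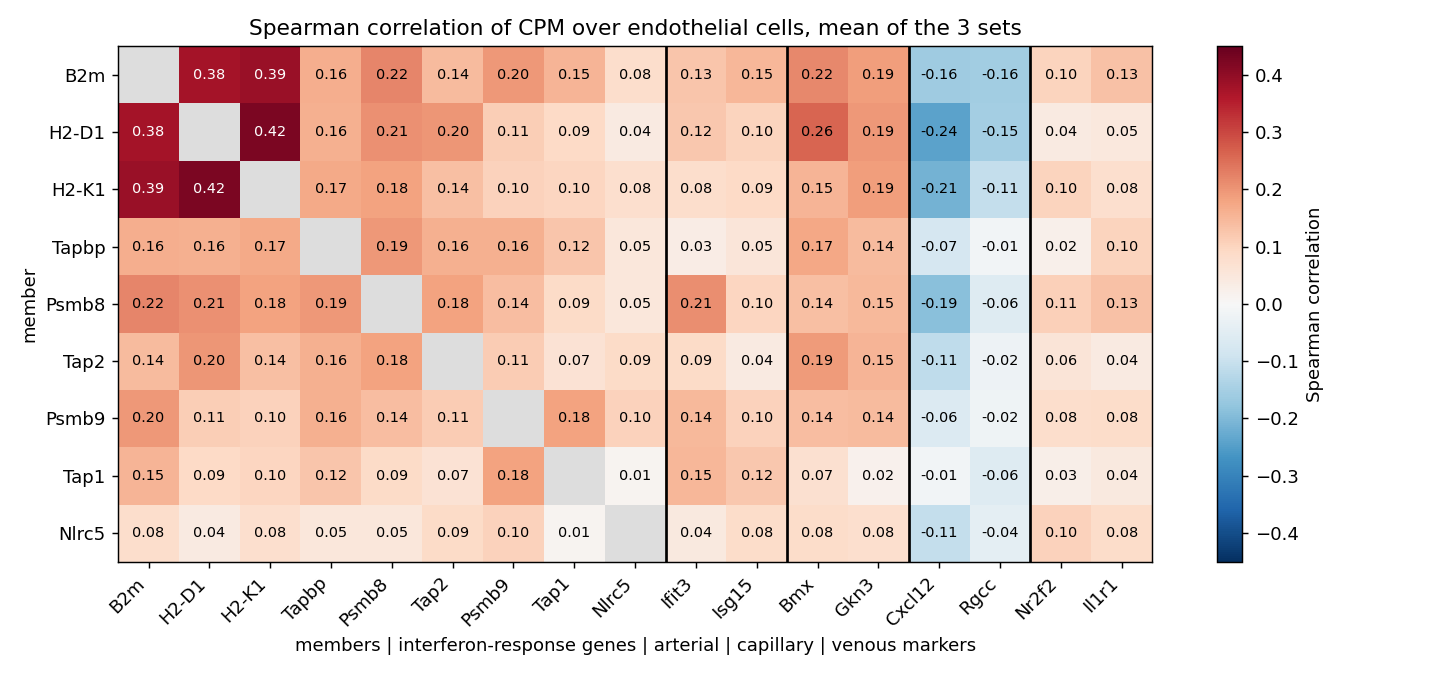
Spearman correlations of CPM over endothelial cells, averaged over the 3 sets, between each member (rows) and the members, Ifit3 and Isg15, and 6 vessel segment markers (columns). The block of B2m, H2-D1 and H2-K1 stands at 0.38 to 0.42, members are mostly positive with Bmx and Gkn3, and mostly negative with Cxcl12 (all 9 by this measure, fewer in all sets by others).

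Ifit3 and Isg15, both induced by type I interferon, were detected in 20.4% and 31.7% of the endothelial cells. Their correlation with each other was 0.26 in Young1, 0.30 in Young2 and 0.35 in AY_Y3. With Ifit3, 8 of 9 members were positive in all sets, and their median of 0.12 compared with 0.03 over all genes. Psmb8 was highest at 0.34, 0.22 and 0.07, so the tie was uneven between sets. With Isg15, 8 of 9 members were again positive in all sets, and their median of 0.10 compared with 0.02 over all genes. B2m was highest at 0.16, 0.16 and 0.13. Tapbp with Ifit3 (0.03) lay at the median of all genes. These are weak correlations, and at 50000 counts per cell the median with Isg15 was 0.04, with 3 members positive in all sets, while that with Ifit3 was 0.13.

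The same tie appears in detection. Among the 81 cells with counts of both Ifit3 and Isg15, Tap1 was detected in 25.9%, against 9.33% of cells with 1 of these genes and 6.86% of the 408 cells with neither. By set (Young1, Young2, AY_Y3) Tap1 was detected in 26.1%, 31.6% and 23.1% of cells with both genes, and in cells with neither it was at 8.94%, 6.80% and 5.07%. Psmb8 was detected in 66.7% of cells with both genes, 52.8% with 1 of them and 42.2% with neither. Its shares with both genes were 78.3%, 68.4% and 58.97% by set, and with neither 37.4%, 43.5% and 44.9%. Between cells with both genes and cells with neither, the sets did not overlap for 4 of the 9 members (H2-D1, Tap1, Psmb8 and Psmb9), all higher with both, as for 22.9% of 9359 genes (23.6% in either direction). At equal depth they were 5, with Tap2 added, against 17.3% of these genes (19.6% in either direction).

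Psmb9 was detected in 43.2% of cells with both interferon-response genes, 27.5% with 1 and 21.6% with neither. Mean CPM of the light chain differed less, with B2m at 2437, 2281 and 1907 in the same order of states. H2-D1 stood at 3567, 3122 and 2705 and H2-K1 at 1829, 1785 and 1363 CPM. These values pool the sets. Within every set each of these genes was higher with both than with neither, but cells with 1 did not always lie between. In Young1 B2m was at 2595 CPM with both and 2877 with 1, and H2-D1 at 3124 and 3328. In AY_Y3 H2-K1 was at 1988 CPM with both and 2214 with 1. Cells with both genes also had more genes at equal depth, with a median of 1947 against 1768 and 1616.5 in the other states. The part of this in the differences was not tested. At 50000 counts per cell the detection of Tap1 in the 3 states was still 24.7%, 7.77% and 5.88%.

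**Figure D3:**
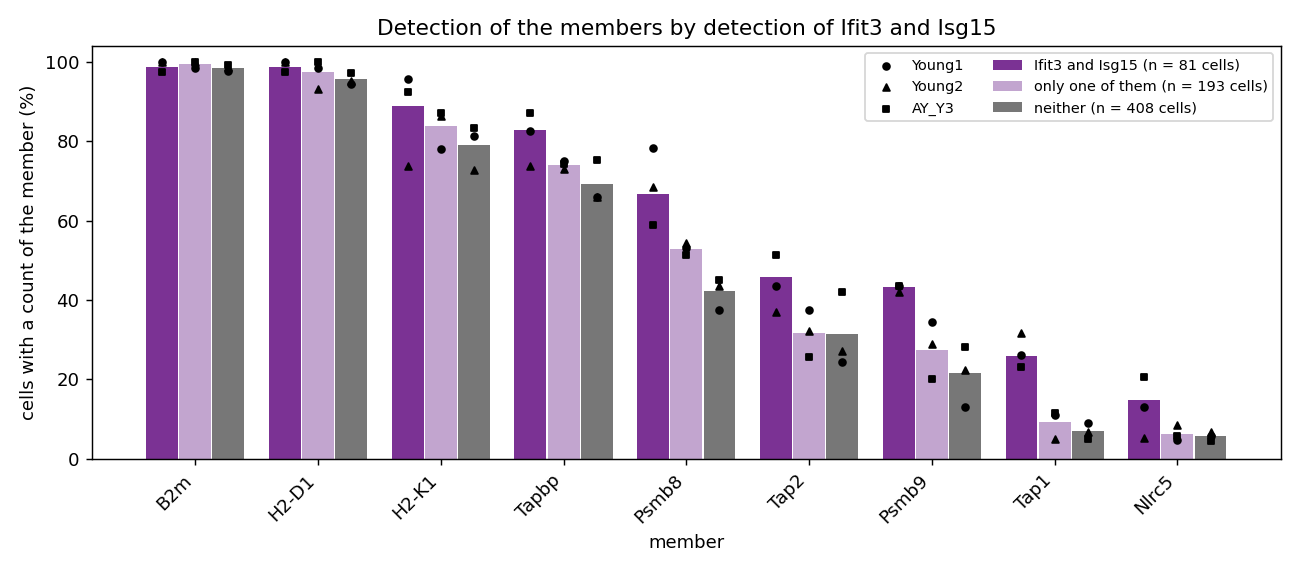
Share of endothelial cells with a count of each member, by whether the cell had counts of Ifit3 and Isg15, of 1 of them or of neither. Bars pool the sets and points give each set; Tap1 was detected in 25.9%, 9.33% and 6.86% of cells across the states, and B2m in 98.8%, 99.5% and 98.5%.

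Along single markers of vessel segments the members were positive with the arterial markers and negative with a capillary one. With Bmx, a kinase gene of arterial endothelium, the median of the members was 0.15, and 8 of 9 were positive in all sets, against a median of 0.04 over all genes. H2-D1 had the highest value with Bmx, 0.26. With Gkn3, a secreted protein of arterial endothelium in the mouse brain, the median was 0.15, and 7 of 9 were positive in all sets, against 0.04 over all genes. With Cxcl12, the chemokine gene used as a capillary marker, all 9 members were negative in all sets by Spearman's correlation, 7 with cells thinned to equal depth, 6 given genes and counts per cell and 4 by Pearson's. Given genes and counts per cell Tap1 was positive with it in all sets (mean 0.02), and by Pearson's Psmb9 was positive on average (0.01). The median by Spearman's was −0.11, against −0.03 over all genes, and H2-D1 was lowest at −0.24. With Rgcc, the other capillary marker, the median was −0.06 and 3 of 9 were negative in all sets. The venous markers gave values close to those of other genes, with medians of 0.08 for Nr2f2 (0.09 over all genes) and 0.08 for Il1r1 (0.08 over all genes).

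Cells were then scored on the 3 marker pairs, and a cell was placed where its leading score exceeded the next by 0.5 SD units. Of the 682 cells 15.8% were arterial-scored, 18.2% venous-scored and 36.8% capillary-scored, 29.2% were not placed, and 41 cells lay within 0.1 of the boundary. Markers not used in the scores followed the classes for arterial cells (12 of 12 highest there) and venous cells (9 of 10), but for capillary cells only 3 of 8 were. The capillary class is therefore defined mainly by Cxcl12 and Rgcc. Counts were summed by set and class and compared by edgeR's quasi-likelihood test, blocked on the set, with 4 residual degrees of freedom. Adjusted p (Benjamini-Hochberg) are over the 9075 genes tested, and a gene is called where its adjusted p is under 0.05.

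In arterial-scored cells the light chain and both heavy chains stood above capillary-scored cells within every set, by 1.52 times for B2m, 1.63 times for H2-D1 and 1.79 times for H2-K1 in the fit, but none passed the test. B2m was at 2979, 2118 and 2941 CPM in arterial-scored cells of Young1, Young2 and AY_Y3, against 2180.5, 1534 and 1619 CPM in capillary-scored cells. H2-D1 was at 3869, 3381 and 5209.7 CPM in arterial-scored cells, against 3206, 1768 and 2750.2 CPM in capillary-scored cells, and the groups did not overlap. H2-K1 was at 2453, 1372 and 3195 CPM in arterial-scored cells, against 1718, 753 and 1477 CPM in capillary-scored cells, and these groups overlapped because Young2 was low in both. The log2 fold changes were 0.60 ± 0.14 (SE) for B2m, 0.71 ± 0.17 for H2-D1 and 0.84 ± 0.23 for H2-K1. Their edgeR adjusted p were 0.178, 0.179 and 0.266.

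Of the 9 members 0 passed in this contrast, where 39 of all genes did (0.43%). At an unadjusted p under 0.05 there were 4 members (B2m, H2-D1, H2-K1 and Tap2) and 843 of all genes. The members' median log2 fold change was 0.68, against −0.06 over all genes, with 8 positive. Higher in arterial-scored cells within each of the 3 sets were 6 members and 14.7% of all genes. The CPM of 2 members, H2-D1 and Tap2, lay above those of capillary-scored cells without overlap, as for 7.39% of all genes.

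Other settings placed the call differently. DESeq2 called B2m, H2-D1 and H2-K1 (7.9% of all genes), and so did edgeR on classes from clusters of a longer list of segment markers (1.67% of all genes). With cells thinned to equal depth edgeR called H2-D1 (1.88% of all genes). Limma on mean log2(CPM + 1), where each cell weighs the same, called these 3 with Tap2, Psmb8 and Psmb9 (6.61% of all genes), on a scale whose median over all genes was itself 0.18. Leaving out Young1, Young2 or AY_Y3 in turn called no member. Over the 14 alternatives, DESeq2 and limma among them, adjusted p ran between 0.000289 and 0.737 for B2m, 3.97e-05 and 0.729 for H2-D1, and 0.000529 and 0.769 for H2-K1.

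**Figure D4:**
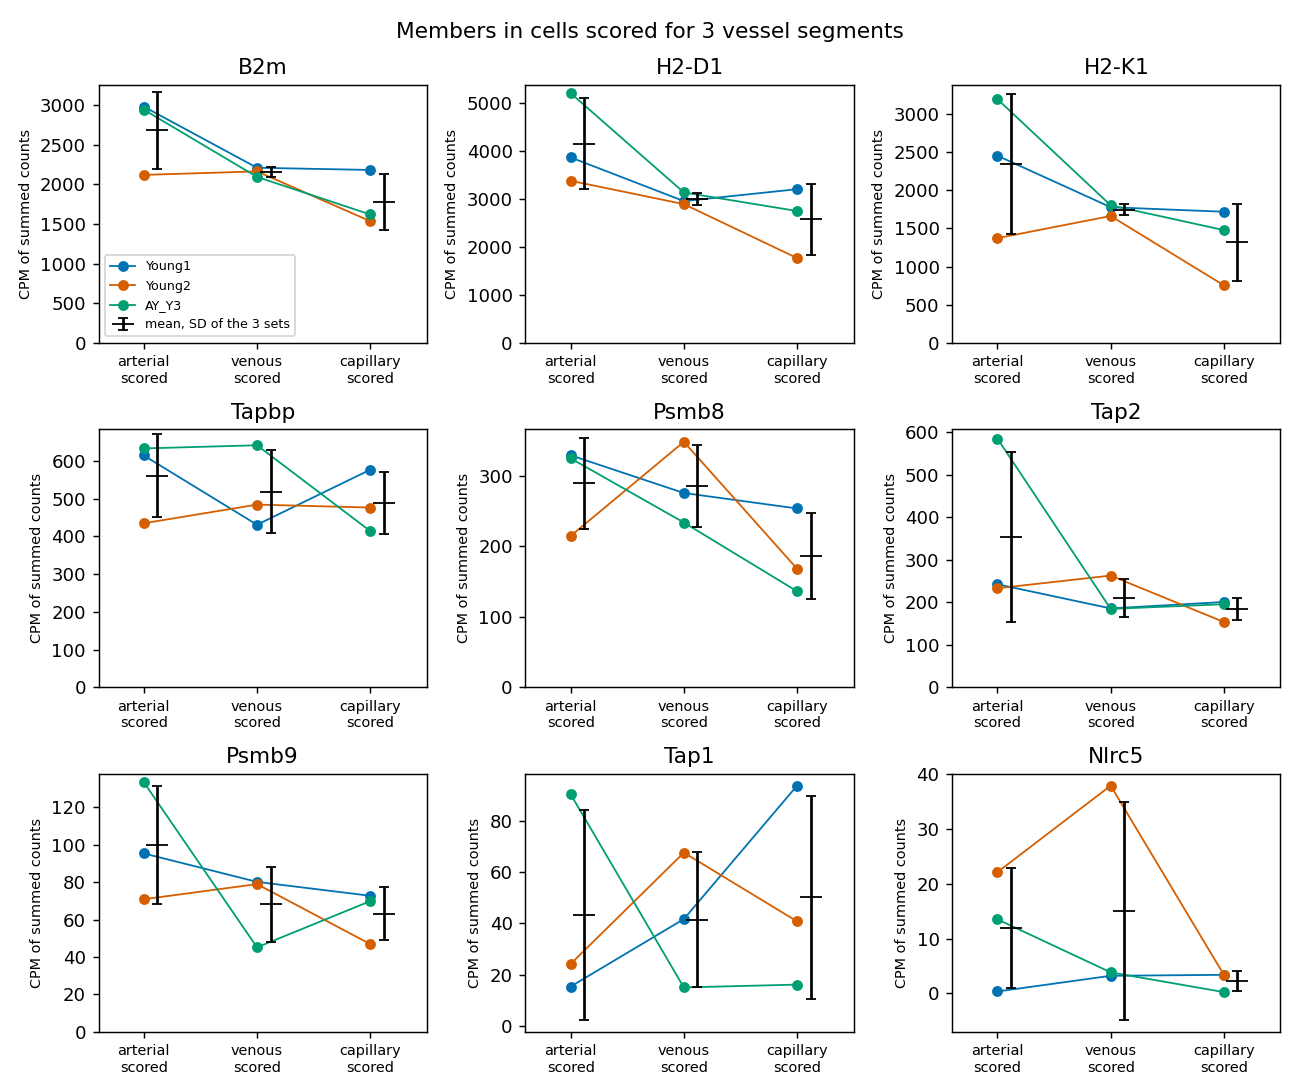
CPM of summed counts of each member in arterial-scored, venous-scored and capillary-scored cells (left to right), with a coloured point for each set and the mean and SD of the 3 sets in black. The axes start at 0 (for Tap1 and Nlrc5 slightly below it). B2m, H2-D1 and H2-K1 are higher in arterial-scored than in capillary-scored cells within every set; Tap1 and Nlrc5 have no common direction.

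Among the loading and processing genes, Tap2 was at 242.4, 232.9 and 585.0 CPM in arterial-scored cells, against 200.7, 153.5 and 195.4 CPM in capillary-scored cells. The value of AY_Y3 sets most of this difference (log2 fold change 0.87 ± 0.36, edgeR adjusted p = 0.524). Psmb8 was at 328.9, 214.6 and 324.6 CPM in arterial-scored cells, against 253.5, 168.03 and 136.1 CPM in capillary-scored cells (0.68 ± 0.29, edgeR adjusted p = 0.540). Both were higher in every set, and neither passed. Psmb9 was at 95.4, 70.9 and 133.5 CPM in arterial-scored cells, against 72.7, 46.9 and 69.9 CPM in capillary-scored cells. Tapbp was at 614, 435 and 633 CPM in arterial-scored cells, against 576, 476 and 414 CPM in capillary-scored cells. Tap1 was at 15.4, 24.2 and 90.3 CPM in arterial-scored cells, against 93.6, 40.8 and 16.2 CPM in capillary-scored cells, and its sets disagreed in direction. Nlrc5 was at 0.365, 22.1 and 13.5 CPM in arterial-scored cells, against 3.40, 3.39 and 0.246 CPM in capillary-scored cells, with counts in 11.1% and 3.19% of those cells.

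Detection pointed the same way as level for most members. Tap2 had a count in 53.7% of arterial-scored and 27.5% of capillary-scored cells, and Psmb9 in 40.7% and 19.5%. H2-K1 was detected in 93.5% of arterial-scored and 74.9% of capillary-scored cells. Arterial-scored cells also had more genes at equal depth, with a median of 1873.5 against 1551 in capillary-scored cells. The part of that in the contrast was not tested.

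Markers of other cells moved with the contrast too. Smooth muscle markers summed to 911.3, 211.7 and 200.3 CPM in arterial-scored cells of Young1, Young2 and AY_Y3, against 34.7, 20.3 and 38.9 CPM in capillary-scored cells. Of these 7 markers 6 had a count in arterial-scored cells and Cnn1 was at 0. Mylk had counts in 47 cells, at 206.4, 178.8 and 196.8 CPM, while Acta2 and Myh11, which define smooth muscle, had counts in 4 cells each. Those few cells weighed in Young1, where Acta2 was at 304.5 CPM and Myh11 at 68.3 CPM. In Young2 and AY_Y3 Acta2 was at 0.222 and 1.87 CPM, and Myh11 at 28.8 and 1.56 CPM. Myl9, with counts in 5 cells, was at 280.1, 3.64 and 0 CPM by set. Without the cells highest in mural markers B2m, H2-D1 and H2-K1 had log2 fold changes of 0.62, 0.73 and 0.84. Microglia or macrophage markers summed to 56.3, 139.9 and 96.04 CPM in arterial-scored cells, against 28.2, 33.7 and 71.5 CPM in capillary-scored cells, higher in every set. Of 11 such markers 4 had a count in each of these classes. The defining markers P2ry12, Tmem119, C1qa, C1qb, Aif1, Ptprc and Tyrobp were at 0 in arterial-scored cells. Of 8 listed markers of T, NK or B cells only 2 were in the table, the B cell genes Cd79a and Ms4a1. Both were at 0 in arterial-scored cells as well, and none of the listed T or NK cell markers could be looked at. Pericyte markers summed to 448.6, 315.3 and 43.4 CPM in arterial-scored cells, with 6 of 10 seen and Kcnj8, Abcc9, Anpep and Atp13a5 at 0, against 435.2, 223.8 and 433.8 CPM in capillary-scored cells, with 9 of 10 seen. Immediate early genes, a sign of stress in dissociation, summed to 9751 CPM in arterial-scored cells of Young1, against 4474 CPM in its capillary-scored cells. In Young2 and AY_Y3 these sums were 2092 and 1628 CPM in arterial-scored cells, against 2074 and 1762 CPM in capillary-scored cells. Their part in the contrast was not tested, and without Young1 the log2 fold changes of B2m, H2-D1 and H2-K1 were 0.65, 0.91 and 0.98.

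Averaged over the sets, venous-scored cells lay between the other classes for the light and heavy chains, though not within each set. In Young2 B2m and H2-K1 were higher in venous-scored than in arterial-scored cells, and in Young1 H2-D1 was lower in venous-scored than in capillary-scored cells. B2m was at 2208, 2162.5 and 2093 CPM in venous-scored cells, H2-D1 at 2957, 2894 and 3138 CPM and H2-K1 at 1778, 1663 and 1803 CPM. The sets lay closer together there than in the other classes, with an SD of 58.2 CPM for B2m against 487 in arterial-scored and 351 in capillary-scored cells. Of the 9 members 0 passed between venous-scored and capillary-scored cells, and 0 of all genes (0%), with 0 members and 417 genes at an unadjusted p under 0.05. The log2 fold changes were 0.26 ± 0.14 for B2m, 0.48 ± 0.23 for H2-K1 and 0.63 ± 0.29 for Psmb8, each with edgeR adjusted p = 0.999. These 3 were higher in every set. No member lay above capillary-scored cells without overlap (7.29% of all genes did). DESeq2 called 2.56% of all genes and no member, and limma on mean log2 values called H2-D1, H2-K1 and Psmb8 (8.91% of all genes, against a median over all genes of 0.41).

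Psmb8 was at 275.5, 348.1 and 233.6 CPM in venous-scored cells, against 253.5, 168.03 and 136.1 CPM in capillary-scored cells, and the groups overlapped. Detection of Psmb8 was 62.9% in venous-scored, 62.04% in arterial-scored and 39.8% in capillary-scored cells. Venous-scored cells had the most genes at equal depth, with a median of 2267.

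Between arterial-scored and venous-scored cells 0 of 9 members passed, where 1.5% of all genes did, 0.749% as higher. H2-D1 was at 3869, 3381 and 5209.7 CPM in arterial-scored cells, against 2957, 2894 and 3138 CPM in venous-scored cells, without overlap. It was the only member of the 9 so placed, against 7.8% of all genes above without overlap and 18.6% above or below, and the only one higher in every set, against 15.1% of all genes. Its log2 fold change was 0.49 ± 0.17 (edgeR adjusted p = 0.304), and DESeq2 called it (10.7% of all genes). B2m had 0.34 ± 0.14, H2-K1 0.36 ± 0.23 and Tap2 0.68 ± 0.37, with edgeR adjusted p of 0.427, 0.660 and 0.572. B2m and H2-K1 were higher in 2 of 3 sets, with Young2 lower in arterial-scored cells. The members' median was 0.34, against −0.05 over all genes.

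Related genes were taken from lists of the same pathway, and none of them passed edgeR in any of the 3 contrasts. Of 7 tested other class I heavy chains 0 were called between arterial-scored and capillary-scored cells. The median log2 fold change of the 7 was 0.73, against −0.06 over all genes, but only 4 of the 7 were positive. H2-Q7, a non-classical heavy chain gene, was at 180.8, 57.8 and 169.3 CPM in arterial-scored cells, against 17.3, 6.07 and 10.3 CPM in capillary-scored cells. The groups did not overlap, and the log2 fold change was 3.57 ± 0.63 (edgeR adjusted p = 0.0740). Without the replicate block it passed, as it did with DESeq2, limma and thinned counts. H2-T23, which encodes the non-classical molecule Qa-1 and is named after its values were seen, was among those that ran the other way. It was at 166.4, 213.6 and 138.97 CPM in arterial-scored cells, against 300.2, 284 and 273 CPM in capillary-scored cells. Reads can be shared between H2-Q genes and the members.

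Of 13 other loading genes (Canx, Calr, Psme1, Psmb10 and others) 0 were called, with a median of 0.37 in the same contrast. Of 14 subunits of the constitutive proteasome core 0 were called, with a median of 0.20, and DESeq2 called none of them either. Of 26 type I interferon response genes 0 were called, with a median of 0.10, and of 12 interferon gamma response genes 0, with a median of 0.41. Ifitm3, an antiviral membrane protein gene, was at 1306, 1336 and 1709 CPM in arterial-scored cells, against 906, 868 and 846 CPM in capillary-scored cells (0.73 ± 0.16, edgeR adjusted p = 0.141). Among other partners of B2m, Fcgrt, the heavy chain of the neonatal Fc receptor, was at 586, 561 and 479 CPM in arterial-scored cells, against 1104, 859 and 1259 CPM in capillary-scored cells. Its log2 fold change was −0.96 ± 0.21 (edgeR adjusted p = 0.165), opposite in sign to that of B2m. DESeq2, which called 7.9% of all genes in this contrast, called 4 of the 7 heavy chains (H2-Q4, H2-Q6, H2-Q7 and H2-T23). It also called 2 of the 13 loading genes, 4 of the 26 type I genes with Ifitm3 among them, 1 of the 12 interferon gamma genes and Fcgrt. Among these H2-T23 and Fcgrt were lower in arterial-scored cells, as given above. The 3 of 6 listed class II genes in the table were nearly absent, with a sum of 0 CPM in arterial-scored cells and at most 18.4 CPM in any set of capillary-scored cells.

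Likeness to the members was measured as the Spearman correlation with the mean of their z-scores over the cells of a set, averaged over the 3 sets. Among 6850 genes outside the members with a count in at least 10% of cells the median was 0.09. Ifitm3 ranked first at 0.34, 0.38 and 0.41 in Young1, Young2 and AY_Y3. After it came Tmem176b, a membrane protein gene, at 0.35 and the arterial marker Bmx at 0.32. Vwf, the von Willebrand factor gene, and Prss23, a serine protease gene, followed at 0.31 each. Vcam1, the leukocyte adhesion gene, stood at 0.31, Tgtp2, an interferon-induced GTPase gene, at 0.31 and Cx3cl1, the membrane-bound chemokine gene, at 0.30. The tetraspanin gene Cd9 at 0.30 and H2-Q4 at 0.29 closed the list of 10, and H2-Q4 was at 0.17 at equal depth. The score itself correlated with the number of genes per cell (0.45), and given genes and counts per cell 8 of these 10 remained among the first 10.

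By list, the median likeness was 0.23 for 7 other heavy chains, 0.22 for 12 interferon gamma response genes and 0.17 for 26 type I interferon response genes. It was 0.18 for 3 inhibitory ligands and 0.14 for 13 other loading genes, where Psme2 and Psme1 (subunits of the proteasome activator) and Psmb10 (the remaining immunoproteasome subunit) led at 0.25, 0.22 and 0.24. The 14 constitutive proteasome subunits had a median of 0.10, near that of all genes, and were led by Psmb4 (0.16), Psma7 and Psma2 (0.14 each). Gbp2 and Gbp3, guanylate-binding protein genes, followed Tgtp2 among interferon gamma response genes at 0.25 and 0.26. In the type I list Trim30a and Oasl2 followed Ifitm3 at 0.24 and 0.22. Fcgrt stood at −0.08 while Mr1 and Hfe, other B2m partners, were at 0.11 and 0.07. Receptors and kinases of the interferon pathway had a median of 0.06, led by Jak1 at 0.17 and by Ifngr1 and Ifngr2 at 0.13 and 0.11. The inhibitory ligands were Lgals9 (galectin-9) at 0.19, Cd47 at 0.18 and Cd274 (PD-L1) at 0.12.

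**Figure D5:**
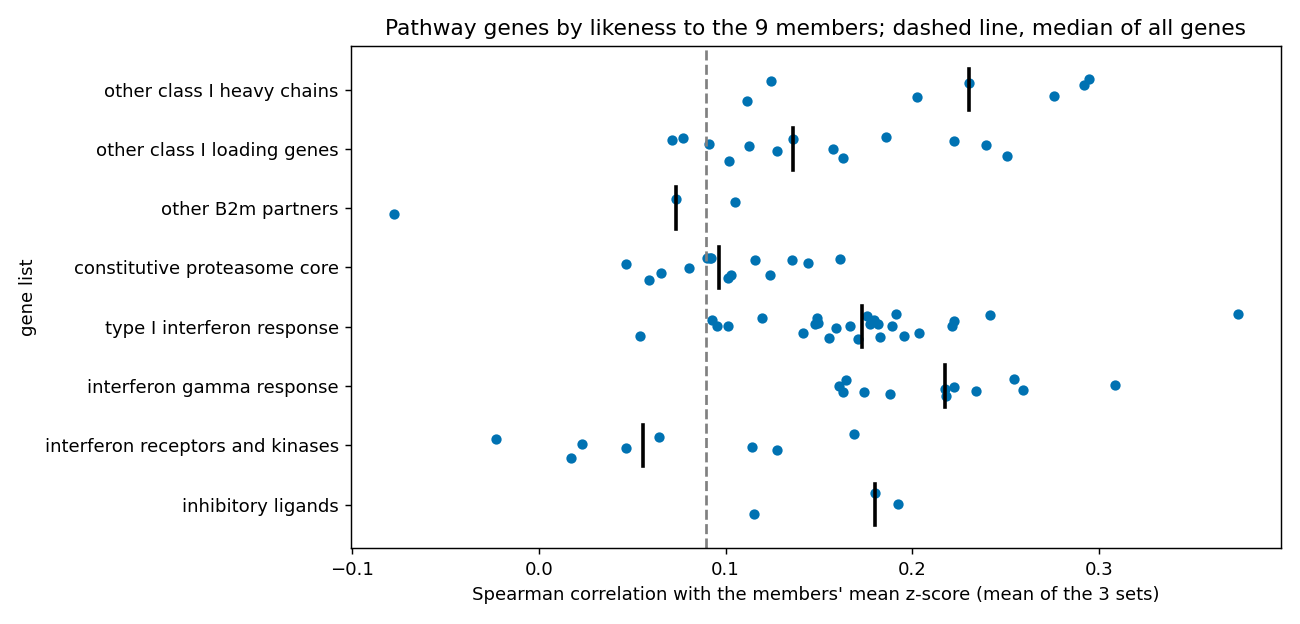
Likeness of single genes (points) to the 9 members, by pathway list, with the median of each list as a black bar and the median of 6850 genes as a dashed line. Other heavy chains (median 0.23) and interferon gamma response genes (0.22) lie above the constitutive proteasome core (0.10).

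The wells left out for pericyte transcripts give a comparison within the same sort. H2-K1 was at 549, 659 and 1244 CPM in the pericyte cluster, against 1805, 1144 and 1845 CPM in endothelial cells of Young1, Young2 and AY_Y3. Psmb8 was at 65.4, 20.4 and 109.1 CPM in the pericyte cluster, against 236.4, 210.4 and 205.8 CPM in endothelial cells. B2m was at 1393, 1546 and 1414 CPM in the pericyte cluster, against 2413, 1857 and 1951 CPM in endothelial cells. H2-D1 was at 1799.9, 2003 and 1697 CPM in the pericyte cluster, against 3129, 2523 and 3347 CPM in endothelial cells. Of the 9 members 4 (B2m, H2-D1, Tapbp and Psmb8) lay below endothelial cells without overlap and the other 5 overlapped, where 22.2% of 9359 genes lay above or below without overlap (5.3% above). Tap1 was at 43.2, 38.6 and 49.9 CPM in the pericyte cluster, against 63.4, 33.7 and 39.1 CPM in endothelial cells. No test was made, since the set means rest on 12, 18 and 8 cells and still held endothelial markers at 14247 CPM. With these and the astrocyte wells kept, mean CPM of each member moved by less than the SD of the sets.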

How the data were processed

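The authors deposited raw read counts per gene symbol and cell for 20607 symbols, without molecular identifiers. Per the submitters' processing notes Bowtie 0.12.2 was used, and the builds mm8 and mm10 are named without a role. Counting tool, annotation and strand setting: not given in the sources used here. All cells had at least 500 genes and 50000 counts. Clusters (2000 variable genes, 10 components, Leiden resolution 1.0, leidenalg 0.10.2) led by markers of other types were left out. Doublets were not called. CPM are counts scaled to a total of 1000000 per cell, and levels of a class are CPM of summed counts.

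Counts summed by set and class (9 sums) were tested with edgeR 4.0.16 (R 4.3.3, TMM, quasi-likelihood, the set as a block since the classes of a set come from the same set of cells), over genes with a count in at least 5% of endothelial cells. The classes were cut from measured marker scores. Alternatives used DESeq2 1.42.0 and limma 3.58.1. Correlations used scipy 1.17.1 and Python 3.11.15. Detection intervals are exact binomial at 95% and cover counting error only. The edgeR test was tried on simulated data, and DESeq2 and limma were not. The labels do not say that sets are separate animals, so p-values measure the spread between sets, which may be technical.

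Named genes are the 9 members, called genes of the pathway lists, the 3 genes of each list most like the members, and the 10 most alike outside them. The members and lists were chosen with earlier results of these data known.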

Additional observations from a re-analysis of the deposited data

How the results depend on the processing

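Calls between vessel classes depended on the tool and on how cells were placed. The directions of B2m and H2-K1 did not in any contrast. Alternatives were followed for 15 chosen fold changes, of B2m, H2-D1, H2-K1, Tap2 and Psmb8 in some contrasts and of H2-Q7, Ifitm3 and Fcgrt. Of their 210 alternative values 27 passed the threshold, 0 reversed and the others stayed on the same side. Outside these 15, directions did reverse. Between arterial-scored and venous-scored cells Psmb8 reversed in 6 of 14 alternatives. Between venous-scored and capillary-scored cells Tap2 reversed in 3 and H2-D1 in 1. Other members reversed too, as Tap1 did in 5 between arterial-scored and capillary-scored cells. Between arterial-scored and capillary-scored cells, where edgeR called 0.43% of genes, DESeq2 called 7.9%, limma on mean log2(CPM + 1) 6.61%, counts thinned to 50000 per cell 1.88%, clusters on segment markers 1.67%, a lead of 0 0.132%, all cells kept 0.676% and the fit without the cells highest in mural markers 0.265%. The fit without the replicate block called 0.650% there, 0% between venous-scored and capillary-scored cells and 1.75% between arterial-scored and venous-scored cells, and 0 members in each. Members called between arterial-scored and capillary-scored cells were 3 with DESeq2, 6 with limma, 1 thinned and 3 by clusters. Between venous-scored and capillary-scored cells, where edgeR called 0%, DESeq2 called 2.56%, limma 8.91% (3 members), thinned counts 0.0522%, a lead of 0 0.0331%, clusters 0.0218% and the fit without mural-high cells 0.0110%. Between arterial-scored and venous-scored cells, where edgeR called 1.5%, DESeq2 called 10.7% (1 member), limma 11.6%, no filter on low counts 0.319%, thinned counts 3.19%, a lead of 0 0.738%, a lead of 1 0.776% and clusters 2.73%. Leaving out a set at a time called 0% to 0.0552% between arterial-scored and capillary-scored cells and 0.0222% to 0.287% between arterial-scored and venous-scored cells. Limma on mean log2 values moved the median of all genes to 0.18, 0.41 and −0.20 in the 3 contrasts, and the share of its calls that were higher was 79.2%, 98.3% and 28.3%, against 28.2% for edgeR in arterial-scored against capillary-scored cells.

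The median over member pairs was 0.107 given genes and counts per cell. The median with Ifit3 was 0.0926 by Pearson's correlation, and that with Isg15 was 0.0370 at equal depth. Chosen after seeing the data, partial correlations along the venous markers gave medians of 0.00707 for Nr2f2 and 0.0247 for Il1r1. The causes were not tested. Tap1 and Nlrc5 had counts in 67 and 47 cells, and 4 residual degrees of freedom limit every contrast.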
